A study of Mus musculus with 10 samples.

Results

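The 10 genes described here encode secreted or membrane-bound factors that are known to feed, anchor or attract myeloma cells in the bone marrow: *Il6*, *Lif*, *Tnfsf13*, *Tnfsf13b*, *Igf1*, *Hgf*, *Vegfa*, *Angpt1*, *Kitl* and *Vcam1*. They were chosen by name for that role, although earlier results of these data were known at the time. All 10 were found by gene symbol among the 22548 genes of the deposited table. RNA-seq was performed on osteocytes, the cells embedded in the bone matrix, from the femurs of 5 control mice (No MM) and 5 mice that carried myeloma (MM), with 1 library per mouse. All mice were labelled as C57BL/6 males of 8 weeks. MM mice had received an injection into the femur of Vk12598, a transplantable murine line derived from the Vk*MYC model of myeloma, and No MM mice had received no myeloma cells. Bones were taken about 6 weeks after the injection. Osteocytes were released from marrow-depleted bone pieces by repeated collagenase and EDTA digestion, and no sort is described. The myeloma line shares the strain of its host. For these 10 genes, RNA of osteocytes, of other bone cells and of myeloma cells therefore cannot be told apart by sequence. In bulk RNA, fewer cells of a type and less RNA per cell cannot be told apart either.

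Plasma cells and myeloma cells do not survive long alone and depend on signals from the cells around them. IL-6 and LIF signal through the shared receptor subunit gp130 to JAK and STAT3, BAFF (*Tnfsf13b*) and APRIL (*Tnfsf13*) bind receptors of the TNF family on B cells and plasma cells, and IGF-1 and HGF activate receptor tyrosine kinases. VCAM-1 on stromal cells holds myeloma cells through the integrin VLA-4, stem cell factor (*Kitl*) and angiopoietin-1 (*Angpt1*) are products of the stromal cells that house hematopoietic stem cells, and VEGF-A drives the growth of new vessels. Osteocytes themselves are known as sources of factors that control bone resorption and formation. The question the comparison addresses is whether osteocytes from myeloma-bearing bone carried more or less RNA for these factors than osteocytes from control bone.

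Upstream sequences are shown for *Il6* and *Lif*, the pair of gp130 cytokines, and for *Vegfa*, because these 3 promoters are classical targets of inducible or general factors. Libraries measure RNA only, so the sequences are given as context and not as a result. Each stretch runs 5′ to 3′ on the strand of the gene. Those of *Il6* and *Lif* end at the base before the gene start in the GENCODE M21 annotation (30013114 and 4257557). That of *Vegfa* ends at the base before its start in the deposited table (46032377), which GENCODE M21 places at 46032369. The *Il6* start in the deposited table, 30013161, lies further downstream. The sequences are those of RefSeq on GRCm38.p6, whose promoter table held 8 of the 10 genes. Capitals mark every match to 5 motifs searched on both strands: AP-1 (TGAGTCA), NF-kB (GGGA, any base, then TTTCC), CRE (GACGTCA), STAT (TTCNNNGAA) and GC box (GGGCGG). *Il6* (chr5:30012864-30013113, plus strand), *Lif* (chr11:4257318-4257556, plus strand) and *Vegfa* (chr17:46032378-46032627, minus strand) read as follows.
Il6: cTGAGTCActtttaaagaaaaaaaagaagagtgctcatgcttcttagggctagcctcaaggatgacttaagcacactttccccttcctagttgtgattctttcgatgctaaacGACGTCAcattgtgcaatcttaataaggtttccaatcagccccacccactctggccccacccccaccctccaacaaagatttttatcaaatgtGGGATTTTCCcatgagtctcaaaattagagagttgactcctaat
Lif: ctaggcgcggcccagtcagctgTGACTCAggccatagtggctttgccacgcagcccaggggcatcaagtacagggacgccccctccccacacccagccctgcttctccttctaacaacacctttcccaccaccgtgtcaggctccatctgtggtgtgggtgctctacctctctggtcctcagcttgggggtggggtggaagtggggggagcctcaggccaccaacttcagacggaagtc
Vegfa: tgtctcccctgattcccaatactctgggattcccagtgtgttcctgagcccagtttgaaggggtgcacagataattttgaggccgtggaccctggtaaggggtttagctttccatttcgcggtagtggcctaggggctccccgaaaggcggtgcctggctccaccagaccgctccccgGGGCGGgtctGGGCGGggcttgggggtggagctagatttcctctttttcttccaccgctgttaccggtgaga
The *Il6* stretch held 1 match each to AP-1, CRE and NF-kB, with the NF-kB match beginning 44 bases before its end. The *Lif* stretch held a single AP-1 match, TGACTCA on the strand shown. The *Vegfa* stretch held a pair of GC boxes, beginning 72 and 62 bases before its end. Of 32851 RefSeq windows of 250 bases, 0.356% held the NF-kB motif, 2.78% CRE, 4.46% AP-1, 7.02% STAT and 32.7% a GC box. A match is a run of letters and not evidence of binding.

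Libraries held between 31099174 and 39466332 reads counted on genes. Counts were scaled to library size with the TMM factors of edgeR and are given as CPM, counts relative to the scaled size of the library, where 3 counts, taken as the smallest number that can be read as detected, corresponded to 0.0709 to 0.114 CPM. A pair of control libraries, No MM 3 and No MM 4, stood apart. Immunoglobulin genes took 26.6% and 29.0% of their counts, against 0.633% to 3.86% in the other 8. The 9 plasma cell markers of the table summed to 9569 CPM in No MM 3 and 9619 CPM in No MM 4, against 595 to 1294 CPM elsewhere, so the highest plasma cell signal was found in control libraries. Most of the sum in No MM 3 and No MM 4 was *Igj* (5554 and 5741 CPM). All plasma cell markers but *Mzb1* were highest in this pair. *Mzb1* stood at 62.9 and 65.5 CPM there and was highest in No MM 1 and No MM 2, at 87.6 and 70.4 CPM. The 7 osteocyte markers (*Dmp1*, *Phex*, *Mepe*, *Sost*, *Fgf23*, *Pdpn* and *Ibsp*) were detected in every library. Their sum was 677 CPM in No MM 3 and 408 CPM in No MM 4, and 975 to 5248 CPM in the others. *Dmp1*, *Phex*, *Pdpn* and *Ibsp* were each lowest in this pair, but *Sost*, *Mepe* and *Fgf23* were not. *Sost* stood at 158 and 110 CPM in No MM 3 and No MM 4, against 68.3 CPM in MM 8. For *Mepe* these values were 114, 63.6 and 49.5 CPM. Neutrophil markers summed to 6873 to 31880 CPM and osteoblast markers to 1710 to 43871 CPM, so the libraries held RNA of other marrow and bone cells as well. The other marker lists, found in every library, summed to 889 to 57830 CPM (erythroid), 797 to 13544 CPM (osteoclast), 503 to 5176 CPM (skeletal muscle), 290 to 621 CPM (endothelial), 198 to 886 CPM (adipocyte), 189 to 518 CPM (B cell), 124 to 245 CPM (dendritic cell) and 30.5 to 129 CPM (T and NK cell). Although all mice were labelled male, 4 Y-linked genes summed to 142 to 176 CPM only in No MM 5, MM 9 and MM 10, and to 0 to 1.27 CPM in the remaining 7 libraries, in which *Xist* stood at 36.2 to 718 CPM. Both divisions touch the values below, and the comparison was therefore also made without No MM 3 and No MM 4 and among the 7 libraries without Y-linked RNA.

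The niche factors spanned a wide range of RNA levels. Compared per gene length, as RPKM (the scaled counts divided by the length of the gene), *Vcam1* was the most abundant at 81.3 ± 31.2 RPKM (SD, n = 10 libraries). It lay above 95.2% of the 16186 tested genes and made up 44.2% to 77.4% of the summed RPKM of the 10 genes. *Vegfa* followed at 22.1 ± 11.4 RPKM, and both stood above the next gene in the order in 10 of 10 libraries. *Kitl* (9.05 ± 3.19 RPKM), *Tnfsf13b* (6.70 ± 2.73 RPKM), *Angpt1* (5.85 ± 3.56 RPKM) and *Igf1* (4.81 ± 1.81 RPKM) formed a middle group near the median tested gene. Their order was not stable: *Kitl* exceeded *Tnfsf13b* and *Tnfsf13b* exceeded *Angpt1* in 7 of 10 libraries each, and *Angpt1* exceeded *Igf1* in 5 of 10. *Igf1* stood above *Lif* in every library. *Lif* (1.52 ± 0.995 RPKM) and *Hgf* (1.28 ± 0.342 RPKM) were not separated, with *Lif* the higher in 5 of 10. *Tnfsf13* (0.913 ± 0.296 RPKM) and *Il6* (0.574 ± 0.370 RPKM) were lowest, and only 11.8% of tested genes had a lower mean than *Il6*.

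**Figure D1:**
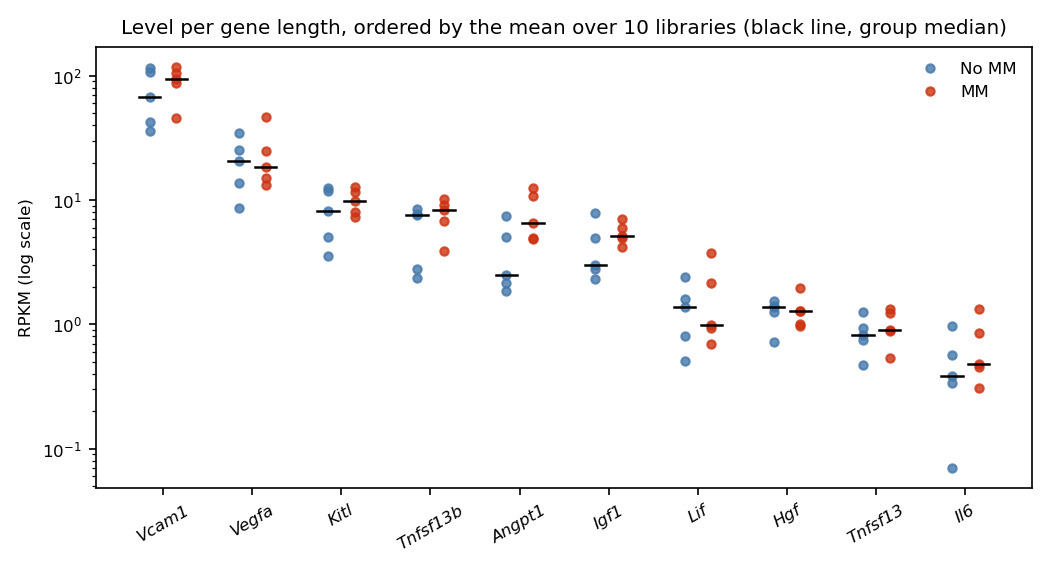
RNA level per gene length (RPKM, log scale) of the 10 niche factors in each library, with No MM in blue, MM in red and black lines at the group medians. Genes are ordered by their mean over all 10 libraries, from Vcam1 at 81.3 to Il6 at 0.574 RPKM, and the 2 groups overlap for every gene.

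No niche factor passed the test between MM and No MM. With edgeR's quasi-likelihood test and Benjamini-Hochberg adjustment over all 16186 tested genes, none of the 10 passed an adjusted p-value of 0.05, and neither did any other gene (0 of 16186, or 0.0%, smallest adjusted p = 0.315). At an unadjusted p-value under 0.05, 1 of the 10 (*Angpt1*) was higher in MM, against 3.81% of tested genes higher and 10.3% lower. With DESeq2, which called 0.143% of its genes higher and 0.856% lower at an adjusted p-value under 0.05, the 10 genes also gave 0 calls, and 1 (*Angpt1*, higher in MM) at an unadjusted p-value under 0.05, a threshold that 4.31% of its genes passed higher and 9.64% lower. The fitted log2 fold change, MM over No MM, was above 0 for all 10 genes, with a median of 0.32, whereas 47.3% of tested genes were above 0 and their median was -0.03. That common sign was not stable. Without No MM 3 and No MM 4, 6 of 10 were above 0, against 48.4% of 16600 tested genes. The median of the 10 was then 0.06. Leaving out No MM 1 alone brought *Vegfa* and *Hgf* below 0. Leaving out MM 6 alone did so for *Vegfa* and *Lif*, and MM 7 alone for *Hgf*. Among the 7 libraries without Y-linked RNA, which include No MM 3 and No MM 4, all 10 were above 0, against 47.4% of 16466 tested genes, and none of the 10 had an unadjusted p-value under 0.05, against 4.09% of tested genes higher and 6.94% lower. No gene of the 10 had groups that failed to overlap, a separation seen in 0.729% of tested genes with MM above and 0.68% with MM below.

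**Figure D2:**
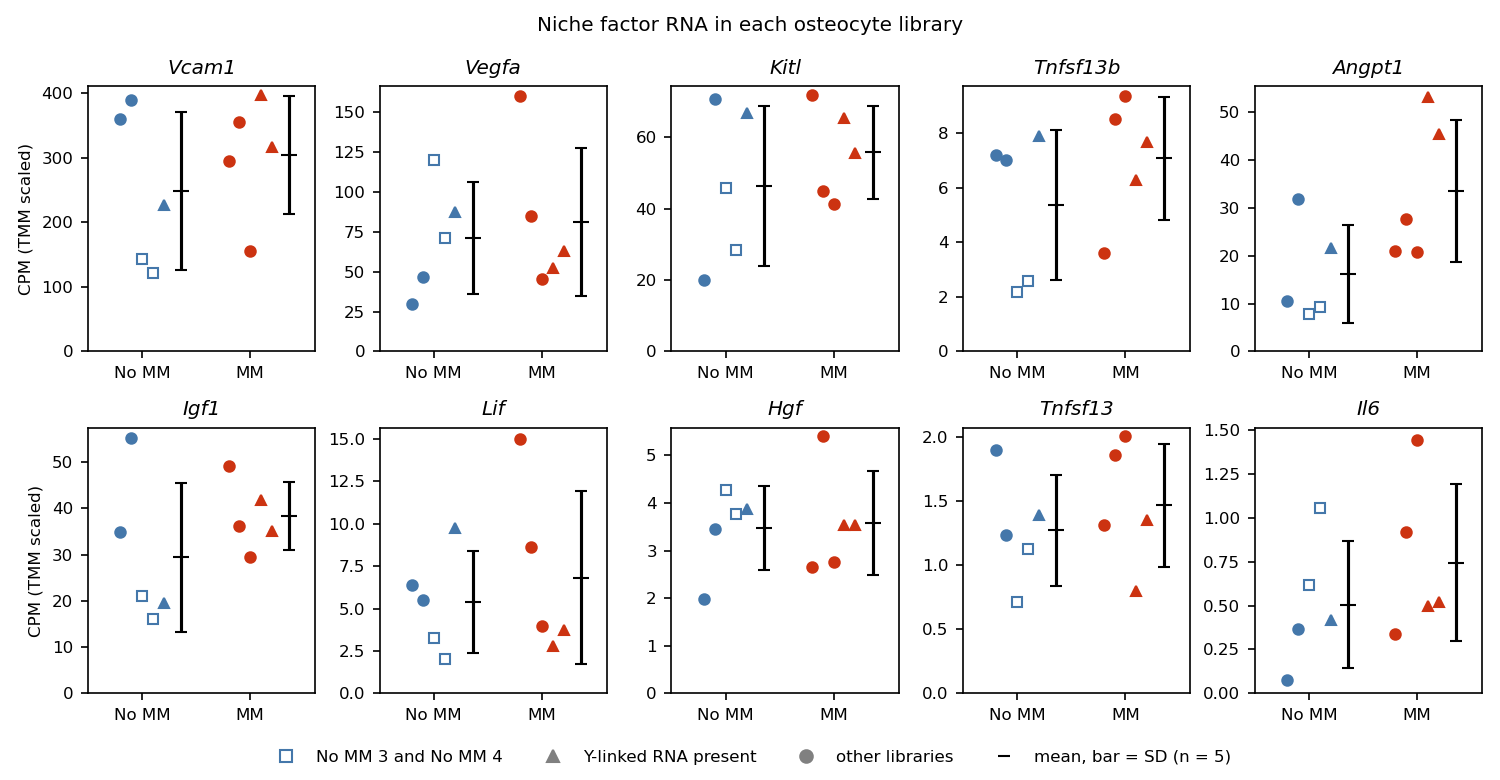
Level of each niche factor (CPM after TMM scaling, axes from 0) in the 5 No MM libraries (blue) and 5 MM libraries (red), with the mean and SD beside each group. Open squares are No MM 3 and No MM 4, triangles are the 3 libraries with Y-linked RNA, and for Tnfsf13b the open squares are the lowest points of the panel, at 2.20 and 2.58 CPM.

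**Figure D3:**
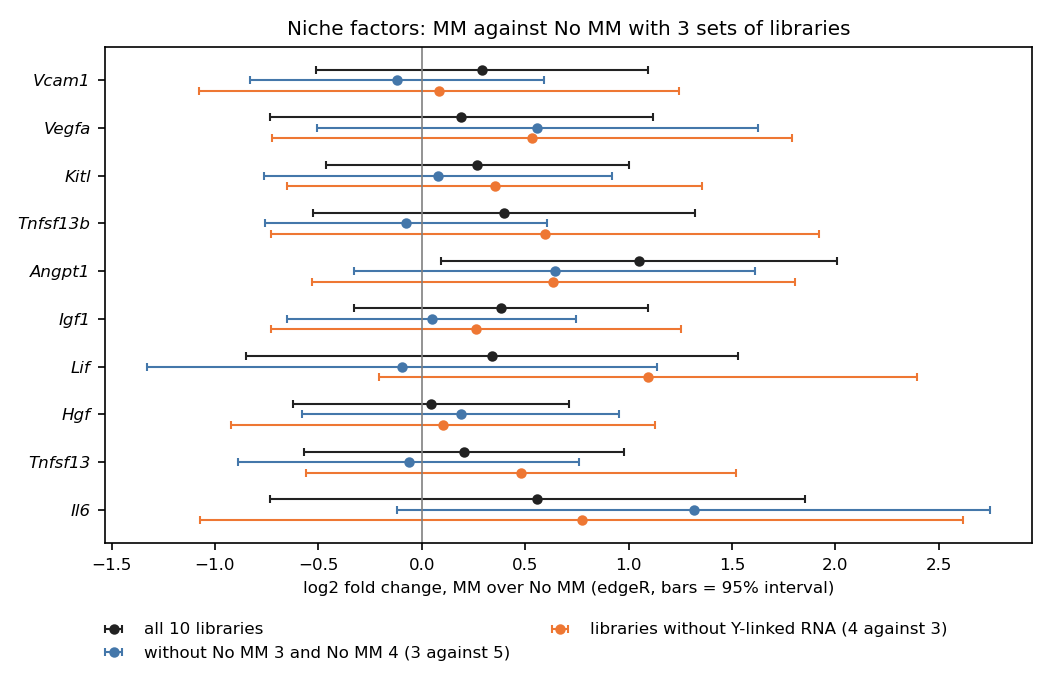
Fitted log2 fold change, MM over No MM, of each niche factor with its 95% interval from edgeR, for all 10 libraries (black), without No MM 3 and No MM 4 (blue) and for the 7 libraries without Y-linked RNA (orange). All intervals cross 0 except that of Angpt1 with all 10 libraries, from 0.09 to 2.01, and this interval also crosses 0 in both smaller sets.

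*Angpt1*, which encodes the ligand that activates the endothelial receptor TIE2 and is made by stromal cells and megakaryocytes, showed the largest difference of the 10 with all libraries, but not without No MM 3 and No MM 4, where *Il6* exceeded it, or among the 7 libraries without Y-linked RNA, where *Lif* and *Il6* did. The gene (ENSMUSG00000022309) lies on chromosome 15 of GRCm38, minus strand, from 42424727 to 42676977. Its level was 10.6, 31.9, 7.92, 9.22 and 21.5 CPM in No MM 1 to 5, and 21.1, 27.6, 20.7, 53.2 and 45.5 CPM in MM 6 to 10. MM 9 and MM 10 were the highest libraries, No MM 1, 3 and 4 the lowest, and No MM 2 and No MM 5 lay among the MM values. Control libraries averaged 16.2 ± 10.3 CPM and MM libraries 33.6 ± 14.9 CPM (SD, n = 5 each). The fitted log2 fold change was 1.05 (SE 0.436, 95% interval 0.09 to 2.01), with an unadjusted p of 0.0346 and an adjusted p of 0.332 from edgeR. An exact permutation test of mean log2 CPM, two-sided, gave p = 0.0714, where 0.00794 is the smallest value that 5 against 5 libraries allow.

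The *Angpt1* difference was smaller in both subsets of libraries. It was 0.64 (SE 0.429, edgeR adjusted p = 0.650) without No MM 3 and No MM 4, and 0.64 (SE 0.506, edgeR adjusted p = 0.642) among the 7 libraries without Y-linked RNA, which leave out MM 9 and MM 10. With Y-linked RNA as a covariate it was 0.79 (edgeR adjusted p = 0.568). Leaving out No MM 1, No MM 3, No MM 4, MM 9 or MM 10 alone also moved the unadjusted p above 0.05, to between 0.0711 and 0.0945, with log2 fold changes of 0.82 to 0.93. Without No MM 2 alone the difference was larger, at 1.45 (SE 0.405, edgeR unadjusted p = 0.00514, adjusted p = 0.196). The 7 stromal markers, all found in every library, summed to 458 CPM in No MM 3 and 550 CPM in No MM 4. They summed to 1384 to 2637 CPM in the other No MM libraries and to 1221 to 2665 CPM in MM. Most of each sum was *Cxcl12*. *Cxcl12*, *Adipoq*, *Foxc1* and *Pdgfra* were each lowest in No MM 3 and No MM 4, but *Lepr*, *Ebf3* and *Pdgfrb* were not lowest in both. The 5 megakaryocyte markers were also found throughout and summed to 128 to 1129 CPM in No MM and 374 to 1780 CPM in MM, with MM 9 (1780 CPM) and MM 10 (1252 CPM) the highest. MM 9 was highest for each of the 5. MM 10 lay above No MM 2 for *Ppbp* and *Itga2b*. For *Pf4*, *Gp9* and *Gp1bb*, MM 10 (226, 56.3 and 55.4 CPM) lay below No MM 2 (239, 58.3 and 57.9 CPM). No MM 1, with 10.6 CPM of *Angpt1*, had a megakaryocyte sum of 993 CPM. The part of stromal cells and megakaryocytes in the *Angpt1* values was not tested. An antisense gene that overlaps the start of *Angpt1*, *Gm17473*, had 0 to 9 counts per library, against 245 to 1929 for *Angpt1*.

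In the angiopoietin list of 9 other genes (ligands, TIE receptors and related proteins), all were tested, 0 passed the adjusted threshold and 1 passed the unadjusted one, in the lower direction, as 10.3% of all tested genes did. This was *Angpt2*, which encodes a ligand that competes with angiopoietin-1 at TIE2. *Angpt2* stood at 36.5, 16.5, 88.2, 55.2 and 34.3 CPM in No MM 1 to 5 and at 26.7, 16.1, 5.69, 15.4 and 15.9 CPM in MM 6 to 10. No MM 3 and No MM 4 were highest, and No MM 2 lay within the MM range. The difference in *Angpt2* was -1.53 on the log2 scale (SE 0.464, edgeR adjusted p = 0.315) and was -0.88 (adjusted p = 0.643) without No MM 3 and No MM 4. For *Tie1*, which encodes the second TIE receptor, it was -0.39 (SE 0.321, edgeR adjusted p = 0.590).

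*Vegfa* (ENSMUSG00000023951, chromosome 17, minus strand, 46016993 to 46032377), the main inducer of vessel growth, varied more within the groups than between them. Its level was 29.7, 47.0, 119.9, 71.5 and 87.5 CPM in No MM 1 to 5 and 160.1, 84.9, 45.4, 52.2 and 63.3 CPM in MM 6 to 10. The highest and the lowest library belonged to different groups, MM 6 and No MM 1, and the other 8 were interleaved. MM exceeded No MM by a log2 fold change of 0.19 (SE 0.421, 95% interval -0.74 to 1.12, adjusted p = 0.858 from edgeR). Without MM 6 it was -0.21. Of the 14 tested genes of the VEGF list (ligands, receptors and oxygen sensing), 7 had a log2 fold change above 0, against 47.3% of all tested genes. The adjusted threshold was passed by 0 of them, and 1 was lower at the unadjusted one, against 10.3% of all tested genes. Without No MM 3 and No MM 4, 3 of the 14 were above 0, against 48.4% of tested genes. In that fit 0 were lower at the unadjusted threshold, against 3.37% of tested genes. The lower gene was *Vegfb*, a ligand of VEGF receptor 1, at 26.5, 26.3, 28.2, 29.9 and 14.2 CPM in No MM and 23.3, 16.0, 13.4, 18.0 and 12.9 CPM in MM. All but No MM 5 of the control libraries lay above every MM library. Its log2 fold change was -0.58 (SE 0.240, edgeR adjusted p = 0.332), and -0.44 (adjusted p = 0.645) without No MM 3 and No MM 4. *Epas1*, the oxygen-regulated factor HIF-2 alpha, had a log2 fold change of 0.44 (SE 0.297, edgeR adjusted p = 0.497).

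*Hgf* (ENSMUSG00000028864, chromosome 5, plus strand, 16553550 to 16619439), which encodes the ligand of MET, showed the smallest difference of the 10 with all libraries, but not in the smaller sets, where it was 0.19 on the log2 scale without No MM 3 and No MM 4 and 0.10 among the 7 libraries without Y-linked RNA. It ranged from 1.98 to 4.26 CPM in No MM and from 2.66 to 5.41 CPM in MM, on 52 to 200 counts per library. Control libraries averaged 3.47 ± 0.881 CPM and MM libraries 3.58 ± 1.10 CPM (SD, n = 5 each). For *Hgf* the log2 fold change was 0.04 (SE 0.303, adjusted p = 0.959 from edgeR), and its 95% interval, -0.62 to 0.71, leaves room for differences of either sign. HGF is secreted as a precursor that proteases cut into the active form, and the HGF list contained these proteases and their inhibitors. All 10 of its genes were tested, 0 passed the adjusted threshold in edgeR, and 4 were lower at the unadjusted one, against 10.3% of all tested genes. This count was 0 of 10 without No MM 3 and No MM 4, against 3.37% of tested genes lower.

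The largest of these was *St14*, which encodes matriptase, a protease that activates HGF. *St14* stood at 7.73, 9.99, 227, 207 and 6.76 CPM in No MM 1 to 5 and at 3.36 to 10.5 CPM in MM. Only No MM 3 and No MM 4 were high, and the other 3 control libraries lay within the MM range. Its log2 fold change was -3.70 (SE 1.07, edgeR adjusted p = 0.315) and -0.23 (adjusted p = 0.839) without those 2 libraries. *Spint2*, an inhibitor of the same proteases, had 286 and 297 CPM in No MM 3 and No MM 4 and 19.2 to 33.6 CPM in the other 8. DESeq2 called *St14* (adjusted p = 0.0167) and *Spint2* (adjusted p = 0.0481) lower in MM, while *Spint2* had an edgeR adjusted p of 0.315. *Sdc1* is named with the BAFF and APRIL genes below, since it belongs to both lists.

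*Il6* (ENSMUSG00000025746, chromosome 5, plus strand, 30013161 to 30019968), a growth and survival cytokine of plasma cells and myeloma cells, was close to the limit of detection. It had 2, 13, 19, 29 and 17 counts in No MM 1 to 5 and 13, 34, 61, 18 and 20 counts in MM 6 to 10. These counts correspond to 0.0762, 0.366, 0.614, 1.05 and 0.417 CPM and to 0.336, 0.919, 1.44, 0.496 and 0.520 CPM. MM 8 was highest, followed by No MM 4 and MM 7, and No MM 1 fell below the 3 counts taken as detected. For *Il6* the log2 fold change was 0.56 (SE 0.588, 95% interval -0.74 to 1.85, adjusted p = 0.675 from edgeR). Without No MM 3 and No MM 4, of which the latter was the second highest library, it was 1.31 (SE 0.635, edgeR adjusted p = 0.643). With a single library left out it fell to 0.17 without MM 8 and to 0.29 without No MM 1. The 8 macrophage markers of the table summed to 2780 CPM in MM 8, the highest, and to 658 CPM in No MM 4, the lowest. No MM 1, the library with the lowest *Il6*, had the second highest sum, at 2230 CPM. Most of the MM 8 sum was *C1qa*, *C1qb* and *C1qc* (606, 839 and 614 CPM). These genes, *Emr1* and *Vsig4* were highest in MM 8, but *Cd68* and *Csf1r* were highest in No MM 1 and *Cd163* in MM 9. The part of macrophage RNA in the *Il6* values was not tested.

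*Lif* (ENSMUSG00000034394, chromosome 11, plus strand, 4257557 to 4272514), the other gp130 cytokine, did not follow *Il6*. Its level was 6.40, 5.52, 3.26, 2.03 and 9.73 CPM in No MM 1 to 5 and 15.0, 8.65, 3.95, 2.81 and 3.75 CPM in MM 6 to 10. MM 6 and No MM 5 were highest and No MM 4 lowest, and 3 MM libraries lay below the No MM median. For *Lif* the log2 fold change was 0.34 (SE 0.540, 95% interval -0.85 to 1.53, adjusted p = 0.794 from edgeR). It rested on MM 6, without which it was -0.17, and it was -0.09 without No MM 3 and No MM 4. Among the 7 libraries without Y-linked RNA it was 1.09 (SE 0.565, edgeR adjusted p = 0.495). The 7 osteocyte markers and the 7 osteoblast markers summed to their highest values in MM 6 as well, at 5248 and 43871 CPM. Most of that osteocyte sum was *Ibsp* (3545 CPM). *Dmp1*, *Phex* and *Pdpn* were also highest in MM 6. *Sost* (265 CPM in MM 6) and *Mepe* (251 CPM) were highest in No MM 2, at 995 and 558 CPM, and *Fgf23* in MM 8. The part of these cells in the *Lif* values was not tested.

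Of the 14 tested genes of the IL-6 and LIF list (receptors, related cytokines and signal proteins), 10 had a log2 fold change above 0, against 47.3% of all tested genes, and 0 passed the adjusted threshold. At the unadjusted one 1 was higher and 2 were lower, against 3.81% and 10.3% of all tested genes. In the fit without No MM 3 and No MM 4, 5 of the 14 were above 0, against 48.4% of tested genes, and the median was -0.07. There 1 was higher and 0 were lower at the unadjusted threshold, against 2.51% and 3.37% of tested genes. The higher gene was *Clcf1*, which encodes cardiotrophin-like cytokine factor 1. *Clcf1* stood at 2.59, 8.31, 8.14, 10.1 and 10.2 CPM in No MM 1 to 5 and at 13.1, 9.62, 25.6, 16.8 and 12.5 CPM in MM 6 to 10. All MM libraries but MM 7 were above all No MM libraries. The difference in *Clcf1* was 0.98 on the log2 scale (SE 0.380, edgeR adjusted p = 0.315) and was 1.12 (adjusted p = 0.643) without No MM 3 and No MM 4. *Ctf1*, which encodes cardiotrophin-1 and was named after its value was seen, was lower at the unadjusted threshold. It ranged from 0.343 to 7.40 CPM in No MM and from 0.354 to 1.53 CPM in MM, and its log2 fold change was -2.19 (SE 0.853, edgeR adjusted p = 0.315) with all libraries and -0.064 (adjusted p = 0.972) without No MM 3 and No MM 4.

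*Tnfsf13b* (ENSMUSG00000031497, chromosome 8, plus strand, 10006843 to 10035441), which encodes BAFF, a survival factor of B cells, divided the control libraries. Its level was 7.20, 7.01, 2.20, 2.58 and 7.91 CPM in No MM 1 to 5 and 3.60, 8.51, 9.38, 6.28 and 7.68 CPM in MM 6 to 10. No MM 3 and No MM 4 were the lowest of the 10 libraries, and the other 3 control libraries lay within the MM range. The fitted log2 fold change was 0.40 (SE 0.420, 95% interval -0.53 to 1.32, adjusted p = 0.677 from edgeR), and -0.08 (SE 0.303) without these 2 libraries. Neutrophils are a known source of BAFF. The 8 neutrophil markers, all found in every library, summed to 6873 CPM in No MM 3, 8075 CPM in No MM 4 and 9840 CPM in MM 6, the 3 libraries with the lowest *Tnfsf13b*, and to 22331 to 31880 CPM in the other 7. The part of neutrophil RNA in the *Tnfsf13b* values was not tested.

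*Tnfsf13* (ENSMUSG00000089669, chromosome 11, minus strand, 69682846 to 69685784), which encodes APRIL, the ligand of BCMA on plasma cells, was low in all libraries. It ranged from 0.711 to 1.90 CPM in No MM and from 0.799 to 2.01 CPM in MM, with 22 to 85 counts per library. Its log2 fold change was 0.21 (SE 0.351, 95% interval -0.57 to 0.98, adjusted p = 0.809 from edgeR) and -0.06 without No MM 3 and No MM 4. The value is uncertain, because reads of *Tnfsf13* can be shared with the read-through gene *Tnfsf12Tnfsf13* on the same strand, which had 8 to 59 counts of its own, and the overlapping antisense gene *Tnfsf13os* had 9 to 137 counts.

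Among the receptors and neighbors of BAFF and APRIL, high values in No MM 3 and No MM 4 were common. Of 12 tested genes, 1 had a log2 fold change above 0 and 11 below, whereas 47.3% of all tested genes were above 0. The adjusted threshold was passed by 0 of them, and 4 were lower at the unadjusted one, against 10.3% of all tested genes. *Tnfsf12* (TWEAK), named after its value was seen, was the gene above 0, at 0.38 (SE 0.345, edgeR adjusted p = 0.620). *Tnfrsf17*, which encodes BCMA, stood at 3.66, 2.65, 19.0, 24.9 and 0.784 CPM in No MM 1 to 5 and at 0.898 to 2.92 CPM in MM. *Sdc1*, which encodes syndecan-1 (CD138), a plasma cell surface proteoglycan that also binds APRIL and HGF, stood at 149.5, 112, 550.0, 646 and 103 CPM in No MM and at 35.7 to 128 CPM in MM. Both genes were far above the rest in No MM 3 and No MM 4. On the log2 scale the difference was -2.46 for *Tnfrsf17* (SE 0.826) and -1.97 for *Sdc1* (SE 0.593), each with an edgeR adjusted p of 0.315. Without No MM 3 and No MM 4 these values were -0.38 (edgeR adjusted p = 0.799) and -0.63 (adjusted p = 0.643). In that smaller set 6 of the 12 genes were above 0, against 48.4% of tested genes. There *Traf3* (0.39) and *Map3k14* (0.50), the brake and the kinase of the noncanonical NF-kB pathway, were higher at the unadjusted threshold, which 2.51% of tested genes passed higher. Both were named after their values were seen, and the adjusted p-value of each was 0.643. *Tnfrsf17* and *Sdc1* are also on the plasma cell marker list, of which 9 of 9 genes were lower in MM at the unadjusted threshold, against 10.3% of all tested genes. All of these 9 but *Mzb1* were highest in No MM 3 and No MM 4.

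*Igf1* (ENSMUSG00000020053, chromosome 10, plus strand, 87858265 to 87937042), a growth factor of myeloma cells and of osteoblasts, was more even among MM libraries than among No MM libraries. Its level was 34.9, 55.3, 21.1, 16.2 and 19.6 CPM in No MM 1 to 5 and 49.1, 36.1, 29.5, 41.9 and 35.2 CPM in MM 6 to 10. All 5 MM libraries lay above the No MM median, and 3 No MM libraries lay below every MM library, yet No MM 2 was the highest of all. Control libraries averaged 29.4 ± 16.1 CPM and MM libraries 38.4 ± 7.46 CPM (SD, n = 5 each), and the log2 fold change was 0.38 (SE 0.323, 95% interval -0.33 to 1.09, adjusted p = 0.597 from edgeR). *Igf1* depended on single libraries: without No MM 2 the log2 fold change was 0.73 and passed the unadjusted threshold (SE 0.264, edgeR adjusted p = 0.219), and without No MM 3 and No MM 4 it was 0.05 (SE 0.309, adjusted p = 0.962). The overlapping antisense gene *Igf1os* had 1 to 10 counts, against 446 to 1964 for *Igf1*.

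Of the 14 tested genes of the IGF list, 7 were above 0 and 7 below, against 47.3% of all tested genes above 0. The adjusted threshold was passed by 0 of them, and 2 were lower at the unadjusted one, against 10.3% of all tested genes. This count was 0 of the 14 without No MM 3 and No MM 4, against 3.37% of tested genes lower. *Igfbp3*, the main carrier of circulating IGF-1, stood at 18.8, 28.7, 196, 69.9 and 39.4 CPM in No MM 1 to 5 and at 9.29 to 33.6 CPM in MM. *Igf1r*, the receptor of IGF-1, stood at 63.6 and 71.7 CPM in No MM 3 and No MM 4 and at 12.9 to 24.5 CPM in the other 8 libraries. The high values of *Igf1r* were thus limited to those 2 libraries, while *Igfbp3* was also higher in No MM 5 than in any MM library. On the log2 scale the difference was -1.52 for *Igfbp3* (SE 0.603, edgeR adjusted p = 0.321) and -1.01 for *Igf1r* (SE 0.444, adjusted p = 0.343). Without No MM 3 and No MM 4 they were -0.24 (edgeR adjusted p = 0.819) and 0.04 (adjusted p = 0.955).

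*Kitl* (ENSMUSG00000019966, chromosome 10, plus strand, 100015630 to 100100413), which encodes stem cell factor, the ligand of KIT, ranged from 20.0 to 70.7 CPM in No MM and from 41.2 to 71.7 CPM in MM. No MM 1 and No MM 4 lay below every MM library, and No MM 2 and No MM 5 were near the top of the MM range. For *Kitl* the log2 fold change was 0.27 (SE 0.333, 95% interval -0.47 to 1.001, adjusted p = 0.729 from edgeR) and 0.08 without No MM 3 and No MM 4. In the stem cell factor and stromal list of 11 tested genes, 10 were above 0, with a median of 0.38, against 47.3% of all tested genes above 0, but 0 passed the adjusted threshold and 1, *Flt3l*, was higher at the unadjusted one (3.81% of all tested genes). In the fit without No MM 3 and No MM 4, 7 of the 11 were above 0, against 48.4% of tested genes, and the median was 0.10. *Flt3l*, which encodes the ligand of FLT3 on progenitor and dendritic cells, stood at 4.72, 6.59, 9.08, 11.8 and 10.8 CPM in No MM 1 to 5 and at 14.3, 12.2, 13.5, 12.3 and 11.8 CPM in MM 6 to 10. Only No MM 4 reached the lowest MM values. The difference in *Flt3l* was 0.58 on the log2 scale (SE 0.257, edgeR adjusted p = 0.349), and it was 0.78 (adjusted p = 0.643) without No MM 3 and No MM 4. *Ebf3*, a transcription factor of stromal niche cells, had a log2 fold change of 0.76 (SE 0.414, edgeR adjusted p = 0.421).

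*Vcam1* (ENSMUSG00000027962, chromosome 3, minus strand, 116110020 to 116129688), the adhesion molecule that binds VLA-4 on myeloma cells, was high in every library. Its level was 360.1, 390.5, 144, 121 and 227 CPM in No MM 1 to 5 and 296, 355, 156, 398 and 316 CPM in MM 6 to 10. No MM 3 and No MM 4 were the lowest, MM 8 followed, and the top values of the groups were nearly the same. For *Vcam1* the log2 fold change was 0.29 (SE 0.365, 95% interval -0.51 to 1.09, adjusted p = 0.732 from edgeR). It was -0.12 (SE 0.315, 95% interval -0.83 to 0.59) without No MM 3 and No MM 4, where the remaining No MM libraries averaged 326 ± 86.9 CPM (SD, n = 3). The stromal marker sums given above for *Angpt1*, mostly *Cxcl12*, were also lowest in No MM 3 and No MM 4, though not every marker was. The part of stromal cells in the *Vcam1* values was not tested.

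Of the 10 tested genes of the VCAM-1 list (integrin subunits and other adhesion molecules), 7 were above 0, also without No MM 3 and No MM 4. Of all tested genes, 47.3% were above 0 with all libraries and 48.4% in the smaller set. With all libraries 0 of the 10 passed the adjusted threshold and 1 was lower at the unadjusted one, against 10.3% of all tested genes. The lower gene was *Icam2*, an endothelial and leukocyte ligand of the integrin LFA-1, with a log2 fold change of -0.70 (SE 0.230, edgeR adjusted p = 0.315). *Itga4*, which encodes the alpha subunit of VLA-4, had 95.4 to 149 CPM in No MM and 103 to 233 CPM in MM and a log2 fold change of 0.44 (SE 0.221, edgeR adjusted p = 0.392). *Madcam1*, another ligand of alpha 4 integrins, did not pass edgeR's filter on low counts. DESeq2 called *Madcam1* lower in MM (adjusted p = 0.0235), on 19.3 and 36.2 CPM in No MM 3 and No MM 4 and 0 to 0.229 CPM in the other 8 libraries.

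**Figure D4:**
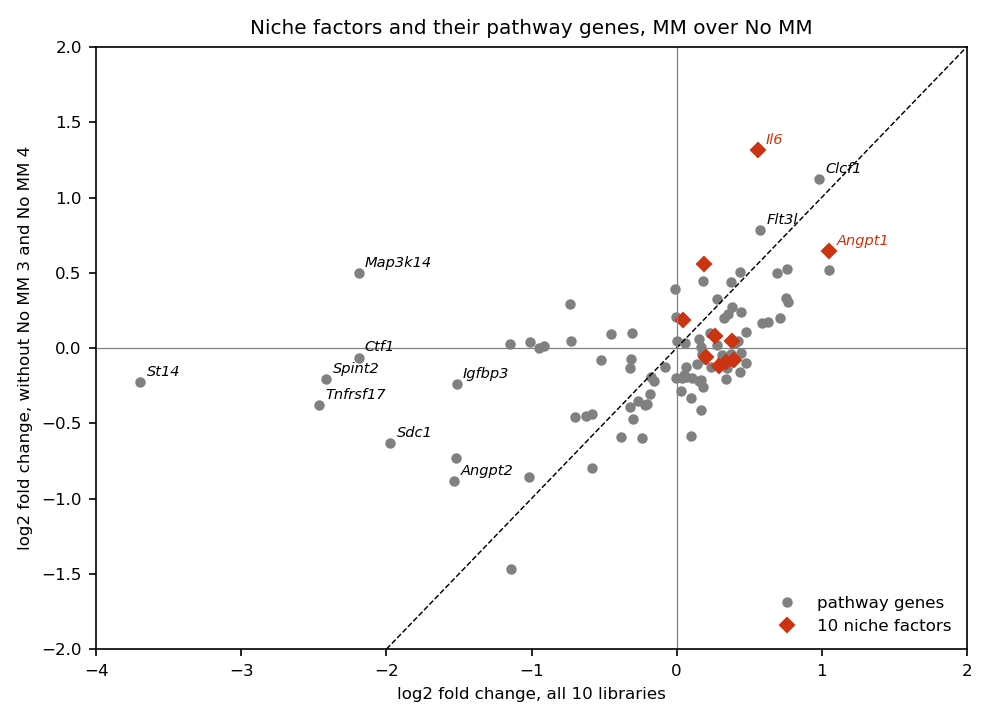
Fitted log2 fold change, MM over No MM, with all 10 libraries (horizontal axis) against the same value without No MM 3 and No MM 4 (vertical axis), for 92 genes of the pathway lists (grey) and the 10 niche factors (red diamonds), with a dashed line where both are equal. St14, Tnfrsf17, Spint2, Map3k14 and Ctf1 lie beyond -2 on the horizontal axis and between -0.38 and 0.50 on the vertical axis, far above the line of equality, while Clcf1 and Flt3l lie above 0 on both axes and near the line.

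Over all 8 pathway lists, 0 genes passed the adjusted threshold in edgeR, 3 (*St14*, *Spint2* and *Madcam1*) passed it in DESeq2, all lower in MM, against 0.856% of its genes lower, and 16 of 93 tested genes, or 17.2%, passed the unadjusted one in edgeR, against 14.1% of all tested genes. Without No MM 3 and No MM 4, 4 passed the unadjusted threshold, all higher in MM (*Clcf1*, *Flt3l*, *Traf3* and *Map3k14*), against 2.51% of tested genes higher and 3.37% lower. *Map3k14* changed sign between these fits, from -2.19 with all libraries.

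The 10 niche factors did not vary together. *Igf1* and *Il6* had a Spearman rho of -0.48 over the 10 libraries, whereas *Tnfsf13* and *Tnfsf13b* had a rho of 0.87, and 0.79 in the 8 libraries other than No MM 3 and No MM 4. No MM 4 was among the 2 lowest libraries for 6 of the 10 genes, and No MM 1 and No MM 3 for 4 each. *Vegfa*, *Hgf* and *Il6* departed from this pattern and averaged higher in No MM 3 and No MM 4 (95.7, 4.02 and 0.833 CPM) than in the other 3 control libraries (54.7, 3.10 and 0.286 CPM). The other 7 genes averaged lower there. MM 6 was among the 2 highest libraries for 4 genes, and MM 7 had the highest median rank together with No MM 5, 7.5 of 10.

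**Figure D5:**
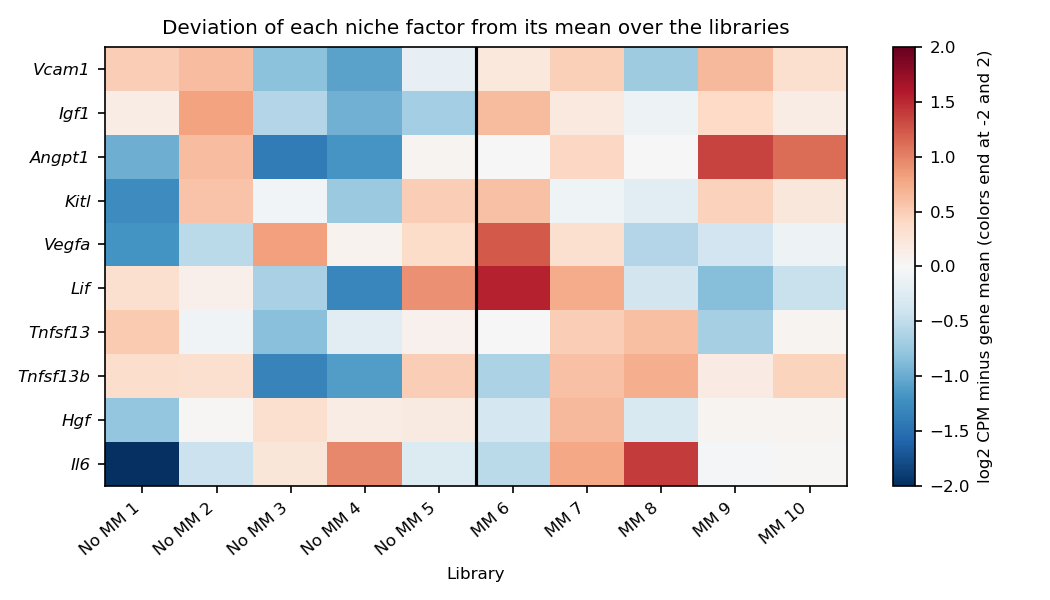
Deviation of each niche factor's log2 CPM from its mean over the 10 libraries, with No MM to the left of the black line and MM to the right. Blue is below and red above the mean. No MM 3 and No MM 4 are blue for Vcam1, Igf1, Angpt1, Lif, Tnfsf13 and Tnfsf13b and red for Il6, Hgf and Vegfa, and the reddest cells of MM lie in MM 6 for Lif and Vegfa, in MM 8 for Il6 and in MM 9 and MM 10 for Angpt1.

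The genes whose order over the 10 libraries was most like that of each niche factor were looked up among all tested genes by Spearman rho of log2 CPM. The 10 libraries share the divisions described above, and the highest of 16186 values is high by selection, so these are descriptions. Genes with equal rho were taken in order of symbol, and 3 to 7 genes reached the third value, so others can rank equally with those named. *Angpt1* ranked the libraries exactly as *Kalrn*, a guanine nucleotide exchange factor, and *Tnik*, a kinase of the Wnt pathway (rho 1 each), followed by *Fbxl2* (0.99). For *Lif* they were *A930004D18Rik*, its own receptor gene *Lifr* and *Lrch1* (0.98 each), 3 of 5 genes with the same rho. *Lifr* kept this value in the 8 libraries other than No MM 3 and No MM 4. *Lifr* stood at 247, 231, 64.3, 49.0 and 551 CPM in No MM 1 to 5 and at 663, 305, 199.9, 146 and 229.5 CPM in MM 6 to 10, with MM 6 and No MM 5 highest, as for *Lif*. *Il6* was most like *Mcl1*, a survival gene of the BCL2 family, *Zfp710* (0.96 each) and *5430427O19Rik* (0.95). *Vcam1* was most like *Cd79a*, a subunit of the B cell receptor, *Cela1* and *Hist1h1c* (0.96 each), 3 of 6 genes with the same rho. For *Tnfsf13b* the genes were *Elmo2*, *Nadk* (0.99 each) and *Nrg2* (0.98), and for *Tnfsf13* they were *4632428N05Rik*, *Myc* (0.94 each) and *Aagab* (0.93). *Igf1* was most like the matrix gene *Efemp1* (0.98), the chemokine gene *Cxcl14* and *Gabra3* (0.96 each). *Kitl* was most like *Rnf152* (0.98), *Pptc7* (0.96) and the Notch ligand gene *Jag1* (0.95). *Vegfa* was most like *Tmem198* (0.98), *Dst* (0.96) and *Arntl2* (0.95), and *Hgf* was most like *Stx3* (0.95), *Gm16314* and *Mybl1* (0.92 each).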

How the data were processed

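RNA was isolated from osteocytes of 5 No MM and 5 MM mice, and paired-end sequencing followed library preparation with a stranded total RNA kit (TruSeq). The authors deposited read counts per gene as whole numbers, without normalization, beside normalized values, FPKM and their own fold changes and p-values, which were not used here. The submitters' processing notes name FastQC 0.11.5 and STAR. The counting program and its strand setting are not given in the sources used here. Positions are those of the table, and 22284 of its identifiers were found in GENCODE M21 (GRCm38), 68.4% of them with the same coordinates.

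Counts were analyzed in R 4.3.3 with edgeR 4.0.16 (filterByExpr, TMM, glmQLFit and glmQLFTest, two-sided, all 10 libraries, no covariates), and Benjamini-Hochberg adjustment covered 16186 genes. Log2 CPM used a prior count of 2. RPKM used the gene length of the table. Exact permutation tests covered all 252 assignments of 10 libraries to 5 and 5. Nothing in the labels gives litters or cages, so p-values measure the spread between these libraries. The 3-count limit covers counting error only, because the reads carry no molecular identifiers.

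The 10 genes, the pathway lists and the marker lists were chosen with earlier results of these data known. Named were all 10 genes, the 2 genes with the smallest p of each pathway list where none passed, genes that DESeq2 called, genes overlapping one of the 10, and the 3 most similar genes of each. *Igfbp1* was not matched in the table, *Vegfd* was matched under its older symbol *Figf*, and *Il11*, *Cntf* and *Madcam1* did not pass the filter. Alternatives were DESeq2 1.42.0, other size factors, immunoglobulin genes left out, other count filters, libraries left out, and, chosen after seeing the data, Y-linked RNA as a subset or covariate and unadjusted thresholds for DESeq2 and the smaller set. The tests were tried on simulated counts. One gene is not reported here.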

Additional observations from a re-analysis of the deposited data

How the results depend on the processing

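Under DESeq2, RLE and upper quartile size factors, no filter on low counts, and without immunoglobulin genes, all 10 log2 fold changes stayed above 0 and none passed the adjusted threshold. Angpt1 came nearest in any fit, with an adjusted p of 0.192 without No MM 5. At an unadjusted p-value under 0.05, 1 of the 10 genes was higher with edgeR, against 3.81% of tested genes. With DESeq2 it was also 1 (chosen after seeing the data), against 4.31% of its genes. Pathway genes past the adjusted threshold numbered 0 with edgeR, as over all genes. With DESeq2 they numbered 3, all lower, against 0.856% of its genes lower. At the unadjusted threshold 16 of 93 pathway genes passed with edgeR, against 14.1% of tested genes. With DESeq2 19 passed it, against 4.31% of its genes higher and 9.64% lower. Without No MM 3 and No MM 4, 4 passed it with edgeR, all higher, against 2.51% of tested genes higher. The last 2 counts were chosen after seeing the data. Without No MM 3 and No MM 4 the log2 fold change turned to -0.062 for Tnfsf13, -0.078 for Tnfsf13b, -0.12 for Vcam1 and -0.094 for Lif. With each library left out in turn it ranged from -0.21 to 0.46 for Vegfa (below 0 without No MM 1, at -0.0053, and without MM 6), from -0.15 to 0.13 for Hgf (below 0 without No MM 1, at -0.10, and without MM 7) and from -0.17 to 0.66 for Lif (below 0 without MM 6). The ranges of the other genes stayed above 0, from 0.05 to 0.39 for Tnfsf13, 0.08 to 0.47 for Kitl, 0.12 to 0.50 for Vcam1, 0.17 to 0.99 for Il6, 0.20 to 0.58 for Tnfsf13b, 0.23 to 0.73 for Igf1 and 0.82 to 1.45 for Angpt1. The cause of these changes was not tested. With at least 10 counts required in every library, Il6 had no value. At 2 to 61 counts per library, its difference is the one that depth limits most. No paired analysis was possible because the labels number the groups 1 to 5 and 6 to 10 and share no replicate number.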
